A study of Mus musculus with 69 samples.

Results

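The gasdermin genes Gsdma, Gsdma2, Gsdma3, Gsdmc, Gsdmc2, Gsdmc3, Gsdmc4 and Gsdmd were followed by name through the skin's response to the phorbol ester TPA. They are 8 of the genes of the mouse, and 6 of them had a probe set that the array annotation gives to 1 gene symbol, among 18820 genes measured in that way. Each of the 6 had 1 such probe set, and Gsdmc3 and Gsdmc4 had none. Gsdmc was put at the centre because earlier results of these data showed it induced in FVB and F1 skin and not in SPR skin, so it was chosen by the log2 values of those same arrays, and its time courses and differences between strains are described here without a test. The other gasdermins were taken by name, and they were tested.

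The arrays measured RNA of whole dorsal skin from mice aged 8 weeks, shaved and treated on the back with TPA, which activates protein kinase C and makes the epidermis thicken and inflame. SPR is the inbred Spret/Ei line of Mus spretus, F1 is the cross of FVB/N with Spret/Ei, and FVB is the FVB/N line. SPR skin had 14 arrays, at 0 h (2), 2 h (1), 4 h (2), 6 h (1), 12 h (2), 24 h (2), 48 h (2) and 1008 h (2). F1 skin had 25 arrays, at 0 h (4), 2 h (1), 4 h (2), 6 h (2), 12 h (2), 24 h (2), 48 h (3), 72 h (2), 168 h (1) and 1008 h (6). FVB skin had 27 arrays, 3 at each of 0, 2, 6, 12, 24, 48, 72, 168 and 1008 h. The 0 h arrays are labelled untreated, and no array from vehicle-treated skin was used here. The labels describe a single TPA dose, while the design text speaks of replicate exposure, and how the 1008 h skin was dosed was not given in the sources used here. No label ties an array to its own animal, so p-values measure the spread between these arrays, which may be partly technical.

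The values are log2 expression values, so a difference of 1 is a doubling. Skin genes were bright: over the 66 arrays the medians of the keratins Krt5, Krt14, Krt1 and Krt10 lay between 12.14 and 12.38 and that of the collagen gene Col1a1 was 10.01. Replicate 1 of SPR skin at 12 h and replicate 2 of F1 skin at 72 h had a narrower range of values than all other arrays. Gasdermin results that they move past the call threshold, or printed changes that they move by over 1.5 times, are given with and without them. All FVB arrays are labelled batch 1 and all SPR and F1 arrays batch 2 or 3, so strain and batch cannot be told apart in a level of FVB skin set beside one of SPR or F1 skin. Strains are therefore compared through their changes from their own untreated skin, and all times of a strain share those untreated arrays. The probes were designed on the mouse reference, and their match to Mus spretus transcripts was not tested.

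Gasdermins are proteins that form pores in membranes. In the resting state their C-terminal part holds back the N-terminal part, and when a protease cuts between them the N-terminal parts assemble into a pore, through which interleukins leave the cell and which can end in the lytic death called pyroptosis. Gsdmd is the target of the inflammatory caspases in macrophages. The Gsdma genes are known from keratinocytes of the epidermis and hair follicle, and dominant mutations of Gsdma3 cause hair loss in mice. Mice carry several close copies of Gsdmc where humans have one gene, and in mouse intestine these copies respond to type 2 cytokines through Stat6.

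The stretch just upstream of a gene's start is where many of the factors that TPA activates bind, and it is shown for the members whose sequence was at hand, which were 2 of the 8. The letters are the 250 bases before the start from RefSeq (GRCm38.p6), that of Gsdma3 at chr11:98626099-98626348 on the plus strand and that of Gsdmc3 at chr15:63878559-63878808 on the minus strand. Capitals mark matches to the motifs searched.
Gsdma3: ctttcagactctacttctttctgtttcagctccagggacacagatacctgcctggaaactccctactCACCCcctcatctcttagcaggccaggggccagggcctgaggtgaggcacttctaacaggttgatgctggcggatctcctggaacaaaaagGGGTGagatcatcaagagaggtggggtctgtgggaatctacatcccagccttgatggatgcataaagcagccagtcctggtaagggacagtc
Gsdmc3: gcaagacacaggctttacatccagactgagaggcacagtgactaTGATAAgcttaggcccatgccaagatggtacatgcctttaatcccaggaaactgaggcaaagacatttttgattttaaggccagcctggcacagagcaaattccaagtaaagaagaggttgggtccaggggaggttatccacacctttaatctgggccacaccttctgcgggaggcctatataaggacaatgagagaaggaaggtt
Both strands were searched for TGANTCA (AP-1), TTC and GAA parted by any 4 bases (STAT6) or any 3 (STAT), CACCC (the Krüppel-like factors) and GATA preceded by A or T and followed by A or G. Gsdma3 held 2 CACCC matches, which begin 183 and 92 bases before the start, and 52% of all 32851 mouse promoters of this length hold at least 1. Gsdmc3 held 1 GATA match, which begins 206 bases before the start, against 26.5% of all promoters with a match. Neither window held the AP-1, STAT6 or STAT letters, which stand in 6.75%, 5.85% and 7.02% of all promoters. The other 6 members are named only.

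Gsdmc was chosen for its rise in F1 and FVB skin, and at its peak it changed more there than any other measured gasdermin. In SPR skin at 48 h Gsdma and Gsdma3 had larger changes than Gsdmc, and those were not called. At its peak Gsdmc stood 1.38-fold above untreated skin in SPR mice (48 h), 5.44-fold in F1 mice (12 h) and 15.1-fold in FVB mice (48 h). The protein of its human counterpart is cut by caspases to form pores in cancer cells.

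In SPR skin Gsdmc measured 7.09 and 7.85 at 0 h, 7.18 at 2 h, 7.21 and 6.81 at 4 h, 6.998 at 6 h, 5.30 and 6.99 at 12 h, 7.27 and 7.84 at 24 h, 7.91 and 7.96 at 48 h, then 6.99 and 7.28 at 1008 h. Both 48 h arrays lay just above the higher untreated array, and every other treated array lay below it. The 5.30 at 12 h came from the array of narrow range. The log2 changes from 0 h were -0.29 and -0.66 at 2 and 6 h, with 1 array each. At 4, 12, 24, 48 and 1008 h they were -0.46 ± 0.52, -1.32 ± 0.52, -0.01 ± 0.53, 0.46 ± 0.52 and -0.43 ± 0.53 (SE of the model). Without the narrow array the 12 h change was -0.48.

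In F1 skin Gsdmc measured 6.64, 6.84, 6.93 and 6.80 at 0 h, 4.92 at 2 h, 7.71 and 7.02 at 4 h, 8.30 and 8.08 at 6 h, 9.40 and 9.10 at 12 h, 8.41 and 9.49 at 24 h, 8.59, 8.89 and 9.16 at 48 h, 7.94 and 8.13 at 72 h, then 6.72 at 168 h. At 1008 h the 6 arrays ran from 7.11 over a median of 9.14 to 9.78. Every array at 4, 6, 12, 24, 48, 72 and 1008 h lay above the 4 untreated arrays, the single 168 h array lay among them, and the single 2 h array lay below them. At 4, 6, 12, 24, 48, 72 and 1008 h the changes were 0.56 ± 0.45, 1.39 ± 0.45, 2.44 ± 0.45, 2.14 ± 0.45, 2.11 ± 0.40, 1.33 ± 0.46 and 1.99 ± 0.34, and the single arrays gave -1.98 at 2 h and 0.01 at 168 h. Against the untreated arrays of the same batch the rise stood in batch 2 and in batch 3, with 2.31 and 2.57 at 12 h, 2.70 and 1.58 at 24 h, 2.09 and 2.06 at 48 h, then 1.60 and 2.69 at 1008 h. SPR skin had untreated arrays in batch 2 alone, and within it the changes were -0.46 at 4 h, -0.20 at 24 h and 0.46 at 48 h.

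In FVB skin Gsdmc measured 5.22, 5.22 and 5.14 at 0 h, 5.53, 6.23 and 5.93 at 2 h, 8.11, 8.16 and 7.12 at 6 h, 9.002, 8.94 and 8.98 at 12 h, 8.94, 9.14 and 9.02 at 24 h, 9.25, 9.20 and 8.89 at 48 h, 8.50, 6.96 and 7.13 at 72 h, 7.57, 7.11 and 7.14 at 168 h, then 8.94, 8.83 and 8.45 at 1008 h. Every treated array lay above the 3 untreated ones. The 9 arrays from 12 to 48 h lay close together, the arrays at 72 and 168 h lay below them, and those at 1008 h were near the plateau again. At 2, 6, 12, 24, 48, 72, 168 and 1008 h the changes were 0.70, 2.6, 3.78, 3.84, 3.92, 2.33, 2.08 and 3.55, all with an SE of 0.42.

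**Figure D1:**
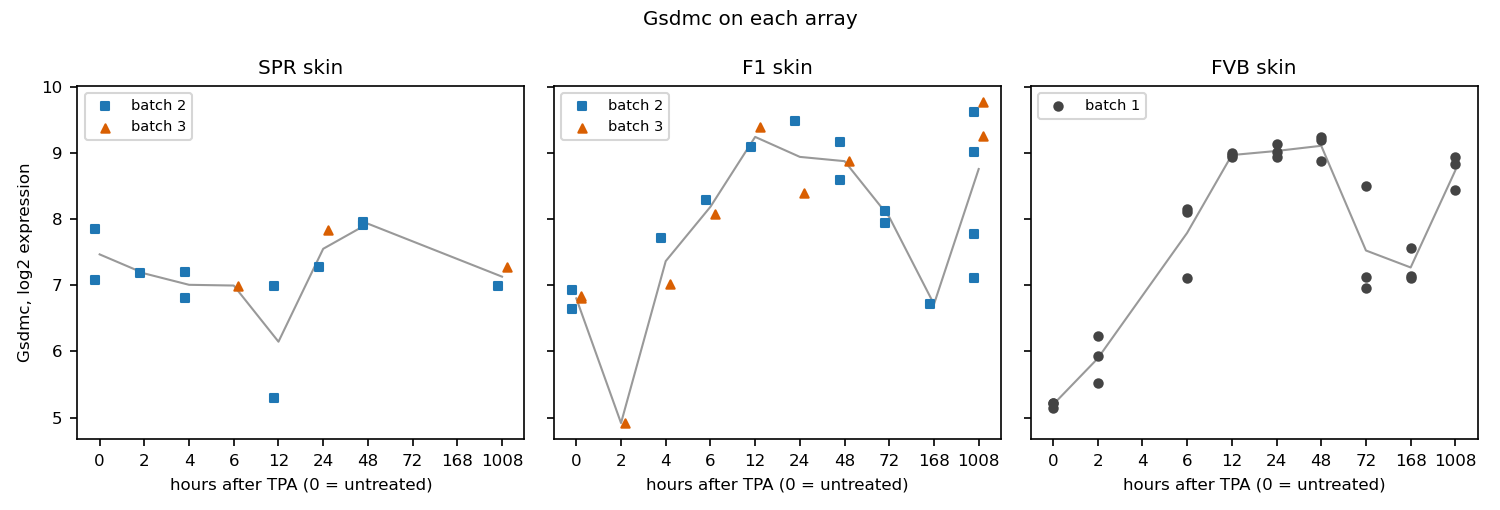
Log2 expression of Gsdmc (vertical) on each array against hours after TPA (horizontal, evenly spaced) in SPR, F1 and FVB skin. Points are arrays, marked by batch, and the grey line joins the means of the times measured. SPR arrays stay between 6.81 and 7.96 apart from the narrow-range array at 5.30, while F1 and FVB arrays reach 9.49 and 9.25 by 24 and 48 h.

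Set side by side, the change of Gsdmc in SPR skin minus that in FVB skin was -5.10 ± 0.67, -3.85 ± 0.68, -3.45 ± 0.67 and -3.98 ± 0.68 (log2, SE) at 12, 24, 48 and 1008 h. SPR minus F1 was -1.02 ± 0.69, -3.77 ± 0.69, -2.15 ± 0.70, -1.64 ± 0.65 and -2.42 ± 0.63 at 4, 12, 24, 48 and 1008 h. F1 minus FVB was -1.21, -1.34, -1.70, -1.81, -1.01 and -1.56 at 6, 12, 24, 48, 72 and 1008 h, with SE between 0.54 and 0.63. The F1 changes thus lay between those of SPR and FVB skin at 12, 24, 48 and 1008 h. At 2 h, with 1 SPR and 1 F1 array, the change in F1 skin was below both. These differences are what the gene was chosen for, and no p is given. Without the narrow array the 12 h differences were -4.26 against FVB and -2.92 against F1.

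The other genes with a large response in FVB and F1 skin were mostly higher in SPR skin as well. Among 18820 genes, 33 (0.175%) were at least 2 log2 units higher in both FVB and F1 skin at both 24 and 48 h, and 29 of the 33 were also at least 1 unit higher in SPR skin at both times. The keratin gene Krt16 was 4.33 higher at 48 h in SPR skin, 4.37 in F1 skin and 3.86 in FVB skin. The remaining 4 of the 33 were Gsdmc, Sprr2g, Lce3c and Defb3, and under 0.5 units in SPR skin at both times were 2 of them, Gsdmc and Sprr2g. Gsdmc was chosen for this pattern on the same arrays, so its place among the 2 was fixed in advance. It also lay near the limits set. With a single array left out its change reached 0.85 in SPR skin at 48 h and 1.45 in F1 skin at 24 h, past those limits. Sprr2g, a cornified envelope gene of a family of near copies, changed by -0.21 and 0.12 at 24 and 48 h in SPR skin, 2.32 and 2.20 in F1 skin, and 3.11 and 2.25 in FVB skin. Lce3c, another envelope gene, changed by 0.34 and 0.75 in SPR skin, 2.18 and 2.42 in F1 skin, and 3.39 and 2.74 in FVB skin. Defb3, an antimicrobial peptide gene, changed by 1.36 and 0.57 in SPR skin, 4.34 and 4.72 in F1 skin, and 5.08 and 2.45 in FVB skin.

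**Figure D2:**
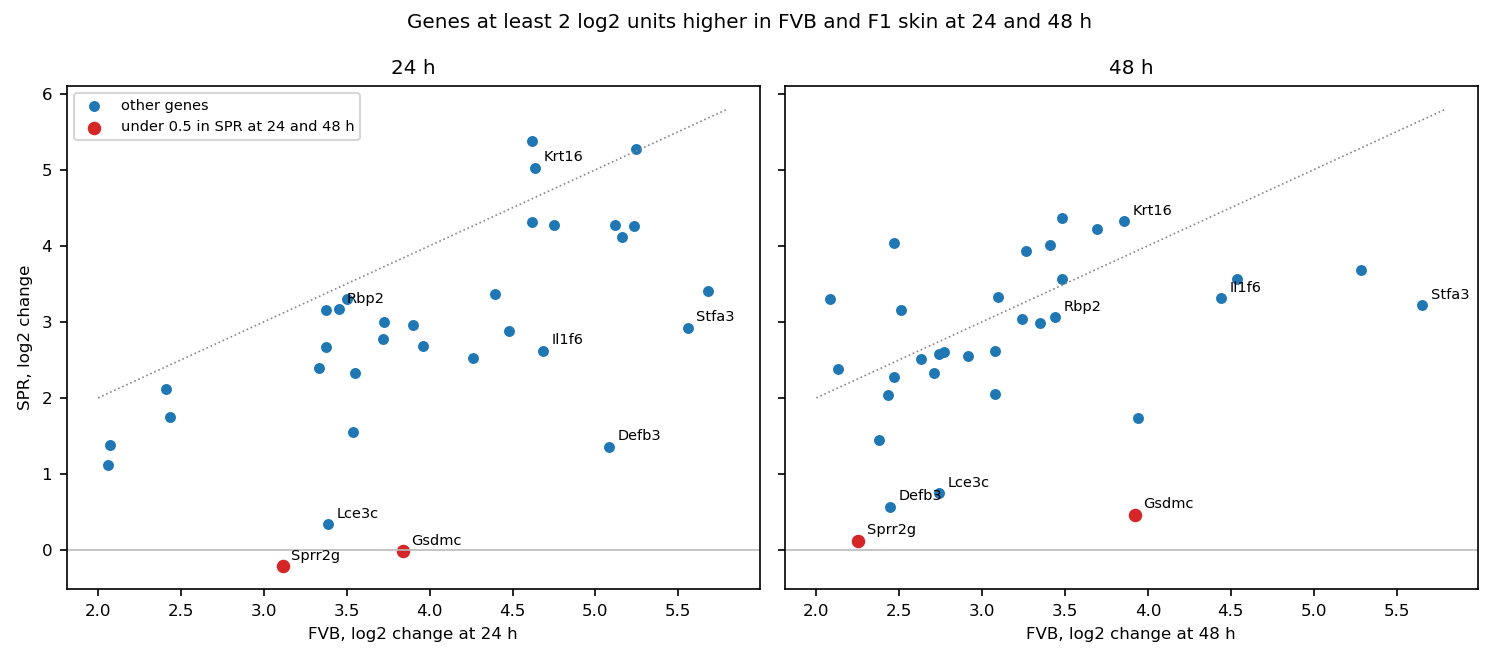
Log2 change in SPR skin (vertical) against log2 change in FVB skin (horizontal) at 24 h (left) and 48 h (right) for the 33 genes at least 2 units higher in FVB and F1 skin at both times. Each point is a gene, the dotted line marks equal change, and red marks Gsdmc and Sprr2g. Most genes lie well above 0 in SPR skin, with Gsdmc at -0.01 and 0.46 and Sprr2g at -0.21 and 0.12.

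The genes whose values followed those of Gsdmc most closely over the 27 FVB arrays were Rbp2 (Pearson r 0.969), Nme2 (0.954), 2610528A11Rik (0.948), Ndufa4 (0.937) and Galnt6 (0.933). These correlations are over arrays that share the TPA time course and the normalization, and are given as a description. Over the 25 F1 arrays the same genes had r of 0.959, 0.588, 0.942, 0.796 and 0.834. Over the 14 SPR arrays they had 0.485, 0.815, 0.361, 0.805 and 0.519, and over the 13 without the narrow array 0.469, 0.159, 0.264, 0.292 and 0.579. Rbp2, which encodes a cytosolic retinol-binding protein, was 3.17 and 3.07 higher at 24 and 48 h in SPR skin, 2.76 and 2.61 in F1 skin, and 3.45 and 3.44 in FVB skin. The gene that moved most like Gsdmc in FVB skin thus rose in SPR skin too. For Gsdma the closest over the FVB arrays were Sdr9c7 (r 0.947), Rbp2 (0.940), Thop1 (0.934), Dnase1l2 (0.932) and Blmh (0.932), for Gsdma2 Epn3 (0.803), Pard6b (0.786), Nfe2l3 (0.779), Padi4 (0.776) and Acp7 (0.768), and for Gsdmc2 Ndufb6 (0.899), Cdc26 (0.898), Alkbh5 (0.891), Sprr2a1 (0.886) and Ethe1 (0.883). Over the 13 SPR arrays without the narrow one r was between 0.430 and 0.749 for the 5 genes of Gsdma, between 0.181 and 0.748 for those of Gsdma2 and between -0.124 and 0.140 for those of Gsdmc2. With it the ranges were 0.569 to 0.929, -0.291 to 0.298 and -0.790 to -0.318. Galnt6, which starts sugar chains on secreted proteins, was 1.12 and 1.44 higher in SPR skin, 2.23 and 2.11 in F1 skin, and 2.06 and 2.38 in FVB skin.

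Gsdmc averaged 7.47 ± 0.54 in untreated SPR skin (SD, n = 2) and 6.80 ± 0.12 in untreated F1 skin (SD, n = 4), a difference of 0.76 ± 0.46 with the batch term (SE), which is a description like its changes, since those are taken against the same arrays. For Gsdmc2 the difference was 0.99 (95% interval -0.02 to 2.01), for Gsdmd 0.39, for Gsdma2 0.27, for Gsdma 0.02 and for Gsdma3 -0.0015, SPR minus F1. By limma 0 of these 5 were called, with adjusted p of 1, and 0 had an unadjusted p under 0.05, where 0.236% of all probe sets were called.

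For the other gasdermins a probe set was called at a time when its limma p, adjusted by Benjamini-Hochberg over all 21218 probe sets, was under 0.05 and its log2 change was at least 1 either way. In FVB skin 10 of 40 combinations of gene and time were called, in F1 skin 3 of 35 and in SPR skin 1 of 25, all of them higher than untreated skin. Times with 1 array were not tested. Counts follow the number of arrays as well as the size of a change, since SPR groups had 2 arrays.

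**Figure D3:**
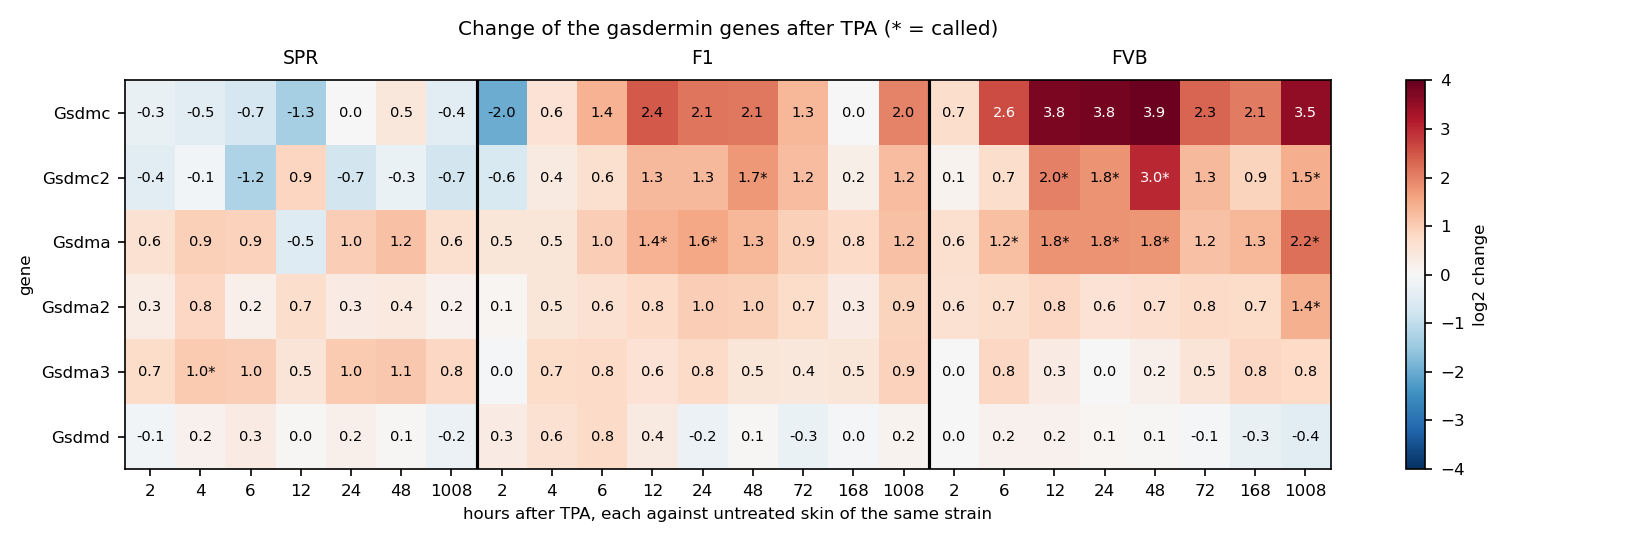
Log2 change of each measured gasdermin (rows) at each time after TPA (columns, hours) in SPR, F1 and FVB skin, each against untreated skin of the same strain. Colour and number give the change and an asterisk marks a call, which was not made for Gsdmc or for times with 1 array. Gsdmc, Gsdmc2 and Gsdma are red through most of the F1 and FVB columns. Gsdmd has no asterisk and reaches 0.76 in F1 skin at 6 h.

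Gsdmc2, the close copy beside Gsdmc, rose in FVB skin and in F1 skin, where its call with all arrays was at 48 h. In SPR skin it measured 4.88 and 5.22 at 0 h, 4.64 at 2 h, 5.27 and 4.62 at 4 h, 4.18 at 6 h, 6.68 and 5.13 at 12 h, 4.46 and 4.54 at 24 h, 4.56 and 5.01 at 48 h, then 4.63 and 4.34 at 1008 h. Apart from 4 h and the narrow array's 6.68 at 12 h, no treated SPR array lay above both untreated ones. In F1 skin it measured 4.47, 4.10, 4.29 and 4.09 at 0 h, 5.92 and 5.15 at 12 h, 5.32 and 5.75 at 24 h, and 5.67, 6.07 and 6.01 at 48 h. In FVB skin it measured 3.50, 3.85 and 3.99 at 0 h, 6.08, 5.39 and 5.96 at 12 h, 5.24, 5.68 and 5.78 at 24 h, 7.36, 6.33 and 6.66 at 48 h, then 5.55, 5.73 and 4.46 at 1008 h. At all of these F1 and FVB times the treated arrays lay above the untreated ones. At 1008 h the 6 F1 arrays ran from 3.72 over a median of 5.59 to 7.11, and 2 of them lay within or below the untreated range.

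The rise of Gsdmc2 in FVB skin was 2.03 ± 0.46 at 12 h (limma adjusted p = 0.00116), 1.78 at 24 h (0.00764), 3.00 at 48 h (3.7e-05) and 1.47 at 1008 h (0.0226). The FVB call at 1008 h was lost without untreated replicate 1 or 2 or 1008 h replicate 1 or 2 (adjusted p 0.0529 to 0.12). F1 skin had a rise of 1.74 ± 0.44 at 48 h (adjusted p = 0.0196), with 1.46 in batch 2 and 1.97 in batch 3. That call was lost without untreated F1 replicate 2 or 4 or any 1 of the 48 h arrays (adjusted p 0.0533 to 0.15). The F1 changes of 1.30 at 12 h, 1.30 at 24 h and 1.24 at 1008 h missed the threshold, with adjusted p of 0.092, 0.187 and 0.08. Without the 2 narrow arrays the 12 h and 1008 h changes were called, at 1.30 and 1.24. In FVB skin the Gsdmc2 change at 72 h was 1.28, not called with all arrays and called without the narrow ones. At 12, 24, 48 and 1008 h the SPR changes were 0.86, -0.73, -0.26 and -0.75, with adjusted p from 0.208 to 1, and without the narrow array the 12 h change was 0.09 (adjusted p = 1). The correlation of Gsdmc2 with Gsdmc was 0.837 over the FVB arrays, 0.871 over the F1 arrays and -0.626 over the SPR arrays, and without the narrow array the SPR value was 0.193.

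A further probe set, 10428960, is listed under Gsdmc, Gsdmc2, Gsdmc3 and Gsdmc4 together, so its signal belongs to no single gene. It gave 4.36 and 4.84 in SPR skin at 48 h against 4.53 and 4.55 at 0 h. F1 skin gave 5.35, 5.24 and 5.88 at 48 h against 4.08, 3.77, 4.10 and 4.03 at 0 h. FVB skin gave 6.51, 6.03 and 6.06 at 48 h against 3.47, 3.42 and 3.68 at 0 h. Its 48 h and 0 h arrays did not overlap in F1 and FVB skin and did in SPR skin. Of 2 more probe sets, listed under Gsdmc2 and Gsdmc4, 10428973 averaged 2.33 at 48 h against 2.84 at 0 h in SPR skin, 2.65 against 2.61 in F1 skin and 3.06 against 2.27 in FVB skin. The other, 10428981, averaged 2.62 at 48 h against 2.80 at 0 h in SPR skin, 3.09 against 2.54 in F1 skin and 3.09 against 2.65 in FVB skin. Since the copies are so alike, signal that the probes of one copy take up from another cannot be separated here, for Gsdmc and Gsdmc2 as well.

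Gsdma, which is expressed in the differentiating layers of the epidermis, rose in FVB skin, where its first call was at 6 h. It also rose in F1 skin, where its calls with all arrays were at 12 and 24 h. In SPR skin it measured 9.07 and 9.33 at 0 h, 9.82 at 2 h, 10.13 and 10.16 at 4 h, 10.10 at 6 h, 7.03 and 10.36 at 12 h, 10.39 and 9.95 at 24 h, 10.50 and 10.26 at 48 h, then 9.79 and 9.88 at 1008 h. In F1 skin it measured 9.89, 8.82, 9.31 and 8.66 at 0 h, 10.54 and 10.57 at 12 h, 10.85 and 10.60 at 24 h, and 10.41, 10.68 and 10.45 at 48 h. In FVB skin it measured 8.71, 8.50 and 8.69 at 0 h, 9.87, 10.0 and 9.61 at 6 h, 10.40, 10.59 and 10.28 at 12 h, 10.23, 10.55 and 10.51 at 24 h, 9.80, 11.01 and 10.39 at 48 h, then 10.54, 10.86 and 11.06 at 1008 h. Each of these treated arrays lay above all untreated ones of its strain, except the narrow array at 7.03. The FVB arrays at 2 h (9.07 to 9.50), 72 h (9.39 to 10.64) and 168 h (9.77 to 10.16) also lay above the untreated FVB arrays. F1 arrays at the times not listed here overlapped the untreated ones at 2 h (9.64), 4 h (9.91 and 9.40) and 1008 h, where the 6 ran from 9.58 to 10.90.

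The rise of Gsdma in FVB skin was 1.19 ± 0.41 at 6 h (limma adjusted p = 0.0262), 1.79 at 12 h (0.00108), 1.80 at 24 h (0.00228), 1.77 at 48 h (0.00341), then 2.19 at 1008 h (0.000121). At 72 and 168 h the FVB changes were 1.18 and 1.32, not called with all arrays and both called without the 2 narrow arrays. The 6 h call was lost without any 1 untreated FVB array or 6 h replicate 1 or 2 (adjusted p 0.052 to 0.0878). F1 skin had a rise of 1.38 ± 0.43 at 12 h (adjusted p = 0.0337) and 1.56 ± 0.43 at 24 h (0.0368), while 1.34 at 48 h had an adjusted p of 0.0516 and 1.16 at 1008 h one of 0.053. Without the 2 narrow arrays the F1 changes at 48 h and 1008 h were called. The 12 h call was lost without untreated replicate 2 or 4 or either 12 h array (adjusted p 0.0947 to 0.23), and the 24 h call without untreated replicate 2, 3 or 4 or either 24 h array (0.0518 to 0.364). Within batch 2 the F1 changes at 12 and 24 h were 0.96 and 1.00, and within batch 3 they were 1.80 and 2.12. The SPR changes of 0.95, 0.99, 1.18 and 0.65 at 4, 24, 48 and 1008 h did not pass, with adjusted p from 0.357 to 1, and the 12 h change was -0.50 with the narrow array and 1.17 without it (0.401 and 0.264). The 95% interval at 48 h ran from 0.18 to 2.18 in SPR skin, and the estimates in the other strains, 1.34 and 1.77, lie inside it.

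**Figure D4:**
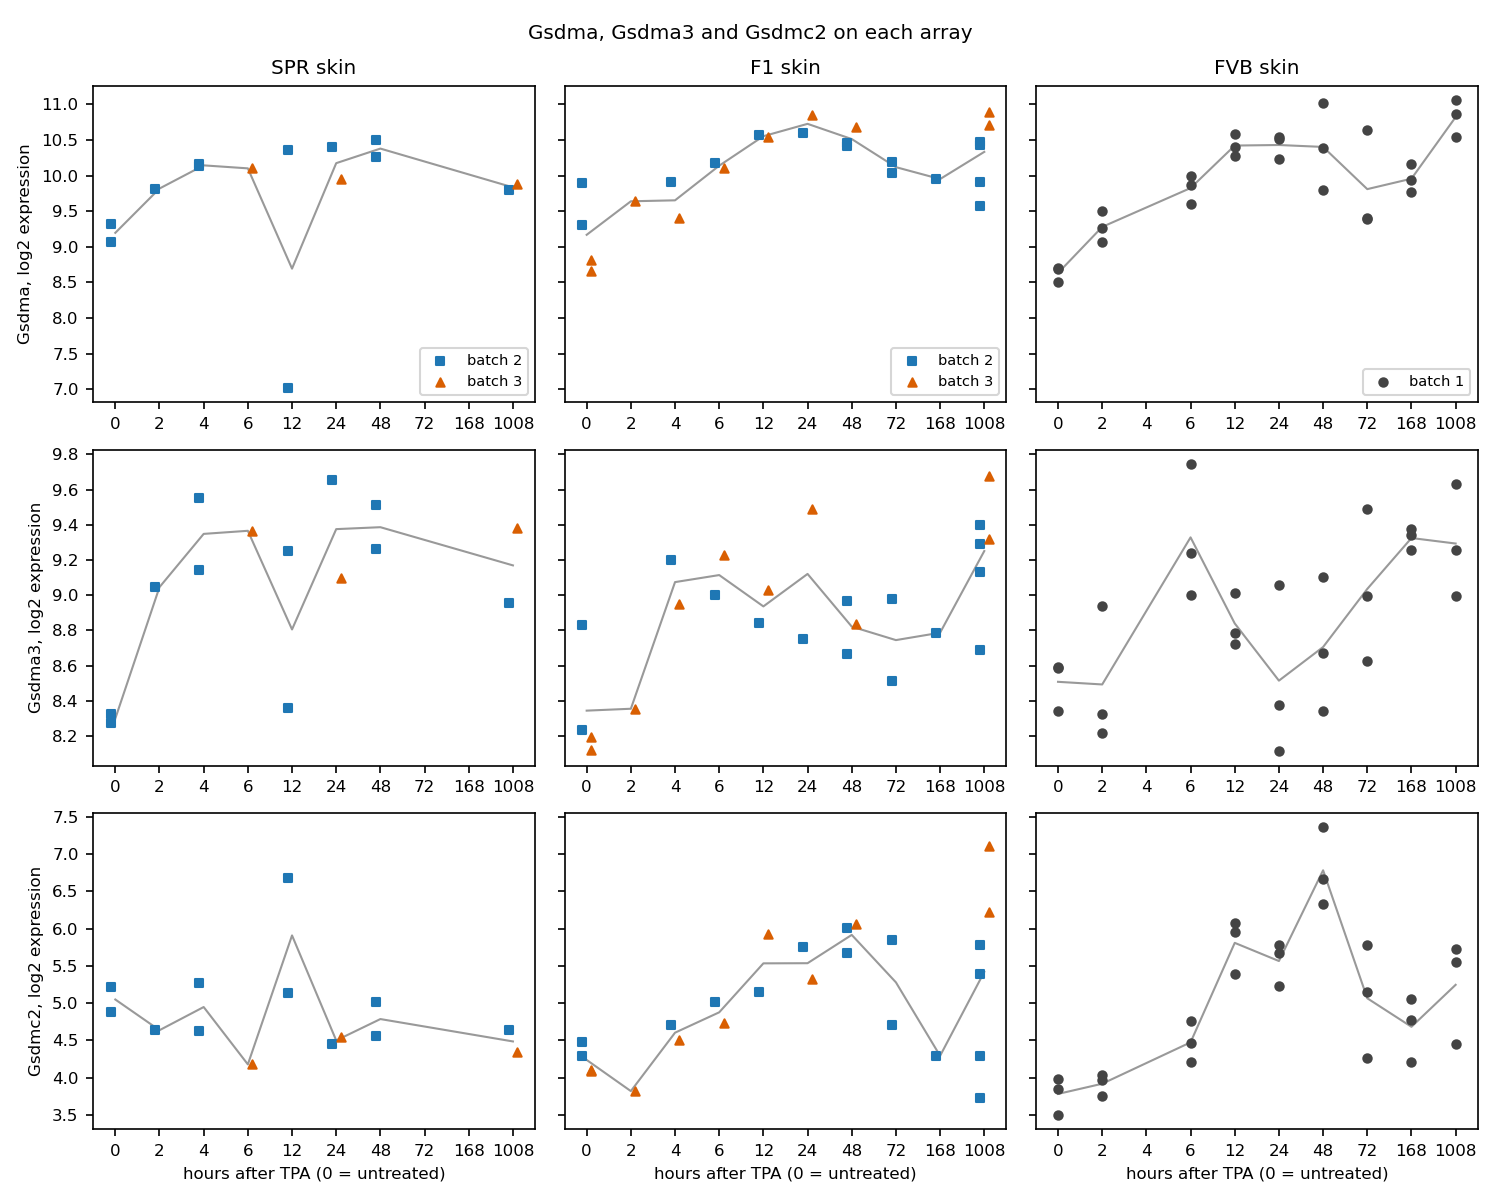
Log2 expression (vertical) of Gsdma (top), Gsdma3 (middle) and Gsdmc2 (bottom) on each array against hours after TPA (horizontal, evenly spaced) in SPR, F1 and FVB skin. Points are arrays, marked by batch, and the grey line joins the means of the times measured. Treated Gsdma points lie mostly above the untreated ones in all 3 strains, Gsdmc2 climbs to 6.07 in F1 and 7.36 in FVB skin at 48 h, and the low Gsdma and high Gsdmc2 points of SPR skin at 12 h are the same narrow-range array.

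Gsdma2 and Gsdma3 are the copies beside Gsdma. Gsdma2 measured 4.74, 4.85 and 5.98 in FVB skin at 1008 h against 3.89, 3.79 and 3.59 at 0 h, a rise of 1.43 ± 0.28 (limma adjusted p = 0.000275). It had 4.80 and 4.14 in SPR skin at 48 h, against 4.21 and 3.93 at 0 h, which overlap, and the change of 0.40 had an adjusted p of 1. At every other time each treated SPR array lay above both untreated ones, with 4.91 and 4.87 at 4 h. At 1008 h they were 4.35 and 4.32, and Gsdma2 was called at none of the tested SPR times. F1 skin had 4.64, 4.97 and 4.85 at 48 h against 4.17, 3.67, 3.92 and 3.80 at 0 h, with no overlap. That change, 0.96 ± 0.27, passed on p (adjusted p = 0.042) and missed the fold threshold, as did 0.89 at 1008 h (0.0282). The FVB change at 12 h, 0.84 (limma adjusted p = 0.0261), passed on p alone too.

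Gsdma3 was the gasdermin called in SPR skin, with 9.14 and 9.56 at 4 h against 8.27 and 8.33 at 0 h, a rise of 1.05 ± 0.33 (limma adjusted p = 0.0385). The call was lost without any 1 of those 4 arrays (adjusted p 0.0711 to 0.377). Its SPR changes at 24 and 48 h, 1.03 and 1.09, were as large and had adjusted p of 0.288 and 0.195, and every treated SPR array lay above both untreated arrays. It changed in F1 skin by 0.77 at 6 h (adjusted p = 0.0491) and 0.92 at 1008 h (0.0133), and in FVB skin by 0.82 at 6 h (0.019) and 0.79 at 1008 h (0.0333), all under the fold threshold. At 24 h it changed by 1.03 in SPR skin, 0.78 in F1 skin and 0.01 in FVB skin. The difference SPR minus FVB at 24 h, 1.03 (95% interval 0.17 to 1.88), had an adjusted p of 0.815.

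Gsdmd, the pore protein of inflammatory caspases, was not called at any tested time in any strain. Its values over all arrays ran from 5.54 to 6.22 in SPR skin, 5.001 to 6.31 in F1 skin and 5.22 to 6.95 in FVB skin. The highest FVB array, replicate 1 at 48 h with 6.95, stood beside 5.37 and 5.22 at the same time. In F1 skin Gsdmd had 6.31 and 6.16 at 6 h against 5.48, 5.64, 5.498 and 5.28 at 0 h, a change of 0.76 ± 0.27 (adjusted p = 0.0421) under the fold threshold. The changes in FVB skin lay between -0.42 at 1008 h and 0.18 at 6 h, each with an SE of 0.25.

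Read by time, the 5 tested gasdermins had 1 call in FVB skin at 6 h, where 6.2% of all probe sets were called higher, 2 at 12 h (5.4%), 2 at 24 h (2.97%), 2 at 48 h (3.03%), then 3 at 1008 h (4.16%). At 2, 72 and 168 h limma called 0 of 5, where it called 3.41%, 1.44% and 0.292% of all probe sets higher, and 1, 3 and 3 of the 5 had an unadjusted p under 0.05. The F1 series had 1 call at 12 h (2.32% of all higher), 1 at 24 h (1.08%) and 1 at 48 h (0.952%). At 4, 6, 72 and 1008 h limma called 0 of 5 in F1 skin, against 5.18%, 5.11%, 0.203% and 0.452% of all higher, with 2, 4, 3 and 4 at an unadjusted p under 0.05. The SPR series had 1 call at 4 h (2.38% of all higher). At 12, 24, 48 and 1008 h limma called 0 of 5 in SPR skin, against 3.09%, 0.165%, 0.127% and 0% of all higher, with 1, 1, 2 and 1 at an unadjusted p under 0.05.

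The median change of the 5 at 48 h was 0.40 in SPR skin, 0.96 in F1 skin and 0.68 in FVB skin, beside medians over all probe sets of -0.04, -0.02 and 0.06. Tested over all times of a strain together with limma's moderated F, 4 of the 5 passed in FVB skin, where 50.2% of all probe sets passed, with adjusted p of 8.29e-06 for Gsdmc2, 0.000414 for Gsdma, 0.00655 for Gsdma3 and 0.0112 for Gsdma2. Gsdmd had an adjusted p of 0.347 there. In F1 skin the same 4 passed, where 25.7% of all passed, with adjusted p from 0.0262 to 0.0398, and Gsdmd had 0.0524. Without the 2 narrow arrays Gsdmd passed as well (0.0281), where 34.6% of all did. In SPR skin, where 36.6% of all passed, Gsdma (0.0327) and Gsdma3 (0.0349) passed, and Gsdmc2 (0.152), Gsdma2 (0.249) and Gsdmd (0.816) did not. Without the narrow arrays 13.4% of all passed in SPR skin and limma's F called 0 of the 5, with 0.115 for Gsdma and 0.0611 for Gsdma3.

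The test of the difference between strains called Gsdmc2 at 48 h. Its change in SPR skin was -0.26 and in FVB skin 3.00, a difference of -3.27 ± 0.73 (95% interval -4.74 to -1.79, limma adjusted p = 0.0362), in a comparison where 0.0424% of all probe sets were called lower. The call was lost without any 1 of the SPR and FVB arrays at 0 and 48 h other than FVB replicate 2 at 48 h, with adjusted p from 0.0517 to 0.369 and differences from -3.49 to -2.98. At 24 h the Gsdmc2 difference was -2.52 (-4.01 to -1.02) with an adjusted p of 0.649, and at 1008 h -2.21 (-3.71 to -0.72) with 0.129. Gsdma was called at 12 h, SPR minus FVB -2.29 (adjusted p = 0.0114), where 15.1% of all probe sets were called lower. Without the 2 narrow arrays that difference was -0.62 (adjusted p = 0.781), and without untreated SPR replicate 2 it was -2.16 (0.0626). At 24 and 1008 h limma called 0 of the 5 between SPR and FVB skin, against 0.00943% and 1.28% of all, with 2 and 3 at an unadjusted p under 0.05. Without the 2 narrow arrays Gsdma (-1.54) and Gsdmc2 (-2.21) were called at 1008 h.

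Between SPR and F1 skin limma called 0 of the 5 at 4, 12, 24, 48 and 1008 h, where 0.00471%, 7.22%, 0%, 0% and 0% of all probe sets were called, and 0, 1, 1, 1 and 1 had an unadjusted p under 0.05. The Gsdmc2 differences, SPR minus F1, were -2.03 at 24 h (95% interval -3.56 to -0.50), -2.00 at 48 h (-3.44 to -0.56) and -1.99 at 1008 h (-3.39 to -0.59), with adjusted p of 1, 0.973 and 1. Between F1 and FVB skin limma called 0 of the 5 at 6, 12, 24, 48, 72 and 1008 h, where 0%, 0%, 0.00943%, 0.066%, 0.405% and 1.4% of all were called, and 0 had an unadjusted p under 0.05. There the Gsdmc2 difference at 48 h was -1.26 (-2.54 to 0.02) and the Gsdma difference at 1008 h was -1.03 (-2.07 to 0.02).

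The genes that act with gasdermins moved in parts. Of 8 cytokine genes measured whose products leave through such pores or oppose them, 3 were called higher in FVB skin at 12 and at 24 h and 2 at 48 h, and none lower; 5.4%, 2.97% and 3.03% of all probe sets were called higher there and 4.97%, 2.67% and 2.82% lower. Il1f6, an interleukin of the epidermis, rose in FVB skin by 4.25 ± 0.47 at 12 h, 4.69 at 24 h and 4.44 at 48 h (limma adjusted p = 1.35e-08, 6.46e-09 and 1.64e-08). At 48 h it rose by 3.31 ± 0.57 in SPR skin (adjusted p = 0.00779) and 3.38 ± 0.44 in F1 skin (4.76e-06). Il1b, whose product is the classic cargo of the Gsdmd pore, rose in FVB skin by 2.64 at 12 h (1.41e-05) and 1.28 at 24 h (0.0388), and Il1a by 2.23 at 12 h (0.000165), 1.49 at 24 h (0.016) and 1.72 at 48 h (0.00647).

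Of 14 inflammasome sensor and adaptor genes measured, 1, 0 and 1 were called higher in FVB skin at 12, 24 and 48 h and 0, 0 and 1 lower. Over all probe sets 5.4%, 2.97% and 3.03% were called higher at these times, and 4.97%, 2.67% and 2.82% lower. The sensor gene Nlrp3 rose by 1.30 at 12 h (limma adjusted p = 0.00345), Nlrp10 by 1.49 at 48 h (0.000762), and the adaptor gene Pycard fell by 1.14 at 48 h (0.0195). Of 10 genes of proteases that cut gasdermins or cytokines, 2, 0 and 0 were higher, namely Casp4, the intracellular lipopolysaccharide sensor, by 1.18 at 12 h (0.0399) and Gzmb, a granule protease of cytotoxic lymphocytes, by 1.39 at 12 h (0.00353). Of 11 genes of membrane rupture and repair limma called 0 at these times. At an unadjusted p under 0.05 there were 3, 1 and 0 of the 11, and Ninj1, which ruptures the dying cell's membrane, changed by -0.03, -0.20 and -0.04. The median changes of the sensor and adaptor genes were -0.42, -0.25 and 0.21, of the protease genes 0.03, 0.23 and 0.26 and of the rupture and repair genes -0.03, 0.02 and -0.0010, beside medians over all probe sets of 0.01, 0.01 and 0.06.

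Of 10 genes of factors known to regulate gasdermin genes, 1 was called higher in FVB skin at each of 12, 24 and 48 h, the type 2 cytokine receptor gene Il4ra, by 2.42 (limma adjusted p = 6.97e-05), 1.33 (0.0343) and 1.45 (0.0233), and Gata3 fell by 1.09 at 12 h (0.0372). Over all probe sets 5.4%, 2.97% and 3.03% were called higher at these times, and 4.97% lower at 12 h. In F1 skin Il4ra was called higher at 12 h, where 2.32% of all probe sets were. In SPR skin limma called 0 of the 10 at 24 and 48 h, with 1 and 0 at an unadjusted p under 0.05. Of all probe sets 0.165% and 0.127% were called higher there. The Il4ra changes in SPR skin were 1.54 at 24 h (adjusted p = 0.401) and 0.90 at 48 h (1), the first larger than the FVB change of 1.33 called at that time. At 6 h 4 of the 10 were called higher in FVB skin (Il4ra by 2.48, Tgfb1 by 1.64, Irf1 by 1.53 and Il13 by 1.06), against 6.2% of all probe sets. At 1008 h Irf1 and Gata3 were lower in FVB skin, at -1.08 and -1.23, where 3.81% of all probe sets were called lower. Gsdme and Pjvk, the other members of the family, were each read on the probe set of highest mean value. They were not called at 12, 24 or 48 h in F1 or FVB skin or at 24 or 48 h in SPR skin. Further Gsdme probe sets were not judged. In FVB skin 10544644 averaged 3.67 at 0 h and 4.31 at 12 h, and 10538269 averaged 4.87 and 5.31.

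Other cell types and states moved with these results. Of 7 genes of activated keratinocytes, 7, 6 and 5 were called higher in FVB skin at 12, 24 and 48 h, against 5.4%, 2.97% and 3.03% of all probe sets. At 48 h 4 of the 7 were called higher in F1 skin and 4 in SPR skin, where 0.952% and 0.127% of all probe sets were. Their summed level, as the mean log2 value after centring each gene over all arrays, ran at 48 h from 0.73 to 1.19 in SPR skin, 0.48 to 1.31 in F1 skin and -0.21 to 0.99 in FVB skin, against -1.95 to -1.85, -2.86 to -1.06 and -2.29 to -1.96 at 0 h. In each strain the 48 h arrays lay above the untreated ones by this measure.

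Of 8 suprabasal genes, 2, 1 and 2 were higher in FVB skin at 12, 24 and 48 h and 3, 0 and 0 lower, the 3 being Krt1, Krt10 and Lor. Of 7 neutrophil genes, 4, 4 and 3 were higher in FVB skin, and of 7 macrophage and monocyte genes 2, 1 and 3. Of 5 T lymphocyte genes none was higher and 5, 0 and 2 were lower. Their summed level ran from 0.03 to 1.99 over the untreated FVB arrays and from -0.19 to 0.07 at 2 h. The part of that untreated spread in these calls was not tested. Over all probe sets 5.4%, 2.97% and 3.03% were called higher in FVB skin at these times, and 4.97%, 2.67% and 2.82% lower. Of 8 liver genes 4 were lower in FVB skin at 48 h, and their summed level ran from -1.32 to -0.16 at 48 h against -0.44 to 2.59 at 0 h. In F1 skin 3 of the 8 (Alb, Apoa1 and Ahsg) were called higher at 24 h, where 1.08% of all probe sets were, with a list median of 2.65. This was the time of a Gsdma call, and the part of the liver genes in that call was not tested. Without the untreated FVB replicates 2 and 3, in which liver transcripts were high, 4 of the 10 FVB calls were made. At 6, 12, 24 and 48 h the Gsdma changes were then 1.11, 1.71, 1.72 and 1.69, and the Gsdmc change at 12 h was 3.75.

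Of 8 inner root sheath genes of the growing hair follicle, 1 was called higher in SPR skin at 48 h, where 0.127% of all probe sets were, and the list's median change there was 4.74. Their summed level in SPR skin ran from -1.20 to -0.86 at 0 h, -0.82 to -0.77 at 4 h, 2.67 to 3.39 at 48 h and 2.52 to 2.70 at 1008 h. In F1 skin it ran from -1.69 to 3.21 at 0 h, was 3.58 on the single 2 h array on which Gsdmc was lowest, and ran from -1.83 to -1.22 at 48 h and -1.30 to 2.64 at 1008 h. In FVB skin it ran from -0.66 to -0.59 at 0 h, -1.49 to -1.19 at 48 h and 4.93 to 5.19 at 1008 h. At 1008 h 7 of the 8 were called higher in FVB skin, against 4.16% of all probe sets. The part of these cell types in the gasdermin values was not tested, and in whole skin fewer cells of a type and less RNA per cell cannot be told apart.

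Of the 6 protein-coding neighbours of the Gsdma cluster, 3 on each side, limma called 0 in FVB skin at 12, 24 and 48 h, and the nearest to a call, the proteasome subunit gene Psmd3, changed by 0.96 at 12 h (adjusted p = 0.0133, under the fold threshold). Of the 6 neighbours of the Gsdmc cluster 2 were called, with Myc 1.28 higher at 12 h (0.002) and 0.14 at 24 h (0.827), and A1bg lower, at -1.59 at 48 h (0.0388). Of the 5 measured neighbours of Gsdmd limma called 0. Over the 17 measured neighbours 1, 0 and 1 were called at 12, 24 and 48 h. Of all probe sets 5.4%, 2.97% and 3.03% were called higher at these times, and 4.97%, 2.67% and 2.82% lower.

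Within the 6 F1 arrays at 1008 h the gasdermins other than Gsdmd were low or high largely on the same arrays. Gsdmd was lowest in replicate 2 (5.31) and highest in replicate 5 (6.10). Replicate 6 had the lowest value of 5 of the 6, with 7.11 for Gsdmc, 3.72 for Gsdmc2, 9.58 for Gsdma, 3.73 for Gsdma2 and 8.69 for Gsdma3. Replicate 1 had 9.78 for Gsdmc, 7.11 for Gsdmc2, 10.71 for Gsdma, 5.45 for Gsdma2 and 9.68 for Gsdma3, the highest of the 6 for all of these but Gsdma, which reached 10.90 in replicate 2. Replicates 1 and 2 are the batch 3 arrays of that time. Over the FVB arrays the correlation with Gsdmc was 0.901 for Gsdma, 0.485 for Gsdma2, 0.241 for Gsdma3 and -0.022 for Gsdmd.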

How the data were processed

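Expression of 35556 probe sets was measured with Affymetrix arrays in dorsal skin, 69 arrays in all, of which 3 have no strain label and enter no comparison. The authors deposited log2 values made with RMA, per the submitters' processing notes, and no version or background setting was given in the sources used here. The number of arrays limits the precision.

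Used here were the 21218 probe sets with 1 gene symbol; 1881 carry several and 12457 are unnamed here. One limma 3.58.1 model (R 4.3.3) fitted 27 group means and a term for batch 3, with 38 residual degrees of freedom. A call needs an adjusted p (Benjamini-Hochberg over all 21218 within a comparison) under 0.05 and an absolute log2 change of at least 1. The members and gene lists were chosen with earlier results of these data known. Each gene of a list was read on its probe set of highest mean value. Named genes are the gasdermins, the called members of the lists at 12, 24 and 48 h in FVB skin (at most 4 a list), the 5 best correlated genes, the genes with the Gsdmc pattern and the neighbours of each cluster. Lce3c, Defb3, Krt16, Ninj1, Tgfb1, Irf1, Il13, Alb, Apoa1 and Ahsg were named after their values were seen. The steps were tested on simulated data.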

Additional observations from a re-analysis of the deposited data

Results flagged for a closer look

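At the times given here, every treated Gsdmc array lay below the untreated mean in SPR skin and above the untreated mean in the other strain. These differences were not tested. SPR minus FVB was -5.10 at 12 h and -3.98 at 1008 h, and SPR minus F1 was -1.02 at 4 h, -3.77 at 12 h and -2.42 at 1008 h. Without the narrow array the 12 h differences were -4.26 and -2.92. The higher SPR array at 4 h (7.21) and at 1008 h (7.28) lay between the untreated ones at 7.09 and 7.85, so a fall in SPR skin is not shown at these times. Gsdmc2 differed between SPR and FVB skin at 48 h by -3.27 in the test of the difference. The same test gave -2.29 for Gsdma at 12 h, with 1 of the 2 SPR arrays of narrow range.

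For Gsdma3 in untreated F1 skin the gap between replicate 1, at 8.83, and the nearest of the other arrays, at 8.24, was 0.839 of the range of the 4 arrays, past Dixon's limit; chance gives about 1 such group in 20. The 3 arrays with no strain label held values above every untreated SPR and F1 array for Gsdma (9.99 on the 6 h array), Gsdma2 (4.37 on the 2 h array), Gsdma3 (9.25 on the 6 h array and 9.21 on the array with no time) and Gsdmd (6.43 and 6.09 on the same 2 arrays).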

How the results depend on the processing

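Counts of called combinations of gene and time were recomputed under each alternative. In FVB skin the 10 calls became 4 without untreated replicates 2 and 3 and stayed within 1.5 times under all other alternatives run, with 8 to 10 when single arrays were left out. In F1 skin the 3 calls became 9 after cyclic loess, 5 without dim probe sets, 5 with 1 probe set per gene, 8 with no fold threshold, 5 without the batch term, 0 in batch 2 alone, 14 in batch 3 alone, 5 with the strain fitted alone, 5 with the replicate block and 7 without the 2 narrow arrays, and 0 to 9 when single arrays were left out, with 0 without untreated replicate 2 or 4. In SPR skin the 1 call became 0 after median centring, 2 after cyclic loess, 0 in batch 2 alone and 0 with the strain fitted alone, and 0 to 3 when single arrays were left out, with 0 without any 1 of the 4 arrays at 0 and 4 h. SPR minus FVB had 0 calls in place of 2 without untreated FVB replicates 2 and 3 and 1 without 3 FVB arrays that stood apart in cell type lists, and ran from 0 to 3 when single arrays were left out. SPR minus F1 had 1 call after median centring and 0 to 1 when single arrays were left out, and F1 minus FVB and untreated SPR minus untreated F1 kept 0 throughout. Of 24 same-numbered FVB pairs 10 had deviations correlated above 0.1 (range -0.59 to 0.36), with all 3 pairs at 6 and 72 h and none at 12, 24, 48 or 1008 h, and 13 of 24 arrays correlated best with their own number, so the numbers were not taken to pair samples. The replicate block changed no other count and gives no value for untreated SPR minus F1, since its numbers lie within strains; batch 3 alone could not be run for SPR skin.

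The Gsdmc change at 48 h ran from 0.08 to 0.85 in SPR skin, 1.94 to 2.22 in F1 skin and 3.85 to 4.03 in FVB skin over all alternatives, and at 24 h from -0.39 to 0.37, 1.45 to 2.83 and 3.79 to 3.98. No gasdermin value changed sign while called. Median centring shifts the median of all probe sets by up to 0.28 in size. The causes were not tested.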

Other observations

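The 3 arrays with no strain label measured 5.59 (2 h), 5.91 (6 h) and 6.71 (no time given) for Gsdmc, where the untreated SPR and F1 arrays ran from 6.64 to 7.85. The single F1 array at 2 h, at 4.92, was the lowest Gsdmc value of all SPR and F1 arrays. For Gsdmc2 the 3 arrays measured 4.80, 4.41 and 4.61, among the untreated SPR and F1 arrays, which ran from 4.09 to 5.22.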
